A study of Mus musculus with 15 samples.

Results

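Leptin (Lep) and 7 other genes that white fat cells express strongly were followed through 15 plantaris RNA-seq libraries from male mice. The 8 genes, Lep, Adipoq, Retn, Cfd, Plin1, Cidec, Fabp4 and Pparg, were taken by symbol from the 20406 genes of the deposited count table, and all 8 passed the filter on low counts in the fits of 12 and of 15 libraries. All mice were HSA-GFP mice, in which the promoter of human skeletal actin drives a reverse tetracycline transactivator in muscle fibres, and a tetracycline response element in turn drives histone 2B fused to green fluorescent protein, so that fibre nuclei are labelled. The group 6M_PoW held mice trained from 4 months of age by 8 weeks of progressive weighted wheel running (PoWeR) and sampled at 6 months. The libraries 6M_POW_LD are titled as trained replicates 4 to 6 and carry identifiers with the letters LD, which the labels do not explain. The group 9M_PoW+DT was trained for 8 weeks and then detrained for 12 weeks, and was sampled at 9 months. Untrained mice of 6 months (6M_UT) and 9 months (9M_UT) were the controls, and each of the 5 groups held 3 libraries. In 9 libraries the treatment field went against the title: for all 9-month libraries it gave the opposite condition, and it described the LD libraries as sedentary. Groups follow the titles, and so does the direction of every comparison below that uses those libraries. The labels do not state that replicates were separate mice, so the p-values speak to the spread among these libraries, which may be technical.

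White adipocytes store triglyceride in a single large lipid droplet and secrete hormones. Leptin acts through its receptor in the brain to restrain food intake, and the amount that fat secretes follows fat mass and recent energy balance. Adiponectin, from Adipoq, acts on muscle and liver to favour fatty acid oxidation. In skeletal muscle, adipocytes lie between fibre bundles and around the muscle surface, and they can arise from fibro-adipogenic progenitors.

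The promoters of 3 of the genes are shown because they belong to genes that were high together in a single library, and because they differ in the motifs they hold. Each is the 250 bases before the transcription start, 5′ to 3′ on the gene's strand, from RefSeq on GRCm38.p6, the same assembly as mm10. Capitals mark matches on either strand to the C/EBP motif TTGCNNAA, the CCAAT box CCAAT and the TATA motif TATAA.
Lep, chr6:29059971-29060220, plus strand: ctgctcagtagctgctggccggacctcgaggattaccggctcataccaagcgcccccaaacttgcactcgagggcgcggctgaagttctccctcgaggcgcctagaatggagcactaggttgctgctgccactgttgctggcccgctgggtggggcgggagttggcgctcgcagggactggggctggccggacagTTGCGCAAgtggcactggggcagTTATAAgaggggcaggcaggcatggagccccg
Adipoq, chr16:23146286-23146535, plus strand: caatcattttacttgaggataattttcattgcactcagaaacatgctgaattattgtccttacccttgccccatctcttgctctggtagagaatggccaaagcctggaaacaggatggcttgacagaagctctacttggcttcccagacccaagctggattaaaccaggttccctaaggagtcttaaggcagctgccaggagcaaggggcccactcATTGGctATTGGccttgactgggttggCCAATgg
Cidec, chr6:113435761-113436010, minus strand: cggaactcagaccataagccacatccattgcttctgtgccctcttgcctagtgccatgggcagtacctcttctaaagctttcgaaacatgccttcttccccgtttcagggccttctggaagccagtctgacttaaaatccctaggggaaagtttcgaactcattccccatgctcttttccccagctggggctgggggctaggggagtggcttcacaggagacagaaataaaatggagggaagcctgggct
The Lep window holds TTGCGCAA, which reads the same on both strands, 48 to 55 bases before the start, and a TATAA 27 to 31 bases before it that overlaps its reverse-strand copy. The Adipoq window holds CCAAT 3 times within 34 bases of the start and no C/EBP match, and the Cidec window shown holds none of these motifs. RefSeq gives Cidec another start, inside the gene, whose window (chr6:113434765-113435014) holds the C/EBP match TTGCTCAA 191 to 198 bases before it. Of 32851 mouse promoters of the same length, 9.56% hold the C/EBP motif, 33.8% the CCAAT box and 22.8% the TATA motif. A match is a description of the letters and does not show that a factor binds there.

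On mm10, Lep lies on chromosome 6 (29060220 to 29073877, plus strand), as do Cidec (113424634 to 113435760, minus strand) and Pparg (115360951 to 115490399, plus strand). Adipoq lies on chromosome 16 (23146536 to 23158028, plus strand), Retn on chromosome 8 (3655770 to 3660110, plus strand) and Cfd on chromosome 10 (79890853 to 79892655, plus strand). Plin1 lies on chromosome 7 (79720218 to 79732903, minus strand) and Fabp4 on chromosome 3 (10204088 to 10208576, minus strand). Values are counts per gene, which cover exons and do not separate isoforms.

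Library totals ran from 18865048 to 27688842 counts. The muscle identity of the samples was plain, with 100165 to 136675 CPM (counts scaled by the effective library total) summed over 10 muscle fibre markers in a library. The adipocyte genes were a small part of the RNA. Per kilobase of exon, the levels in 6M_UT were 101 CPM for Fabp4 and 13.8 ± 6.60 CPM for Cfd, followed by 2.48 ± 0.56 CPM for Adipoq and 1.46 ± 0.21 CPM for Cidec (SD, n = 3). Pparg stood at 0.929 ± 0.114 CPM per kilobase, Plin1 at 0.640 ± 0.148, Lep at 0.546 ± 0.178 and Retn at 0.485 ± 0.134, and the last 3 did not differ beyond their spread. A single Lep count in these libraries therefore weighs heavily, and 12 counts in all were assigned to Lep in the 3 trained 6M_PoW libraries. Intervals on such counts cover counting error only. In bulk muscle, fewer adipocytes and less RNA per adipocyte cannot be told apart.

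Leptin was lower in trained muscle and higher in detrained muscle than in the untrained muscle of the same age. The counts of Lep were 4, 3 and 5 in 6M_PoW, against 56, 47 and 29 in 6M_UT. Scaled for depth, these were 0.187, 0.111 and 0.225 CPM in 6M_PoW and 2.41, 1.66 and 1.27 CPM in 6M_UT. Every trained library lay below every untrained one, and the gap between the groups was wider than the range within either on the log scale. Summed over the libraries of a group, Lep was 10.4-fold lower in 6M_PoW than in 6M_UT, with an exact Poisson 95% interval of 5.78 to 20.7. The fitted log2 fold change was -3.34 ± 0.89 (SE). It did not pass over all genes (edgeR quasi-likelihood test, Benjamini-Hochberg adjusted p = 0.257).

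That call depended on the test and on 1 library of another group. DESeq2 gave an adjusted p of 0.00208 for the same libraries, and edgeR gave 0.0306 when 9M_PoW+DT replicate 3, which is in neither group compared, was left out. That fit changed the shared estimate of spread and also redid the filter and the scaling, with 15311 genes tested in place of 14919. Over 22 alternatives the adjusted p ran from 0.00208 to 0.618, under 0.05 in 2 of them, and the log2 fold change stayed below 0 in every one.

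In the LD libraries, Lep had 0.343, 0.749 and 0.565 CPM, against 2.41, 1.66 and 1.27 CPM in 6M_UT. These 3 libraries also lay below all untrained ones of 6 months, though each was above every 6M_PoW library. The log2 fold change against 6M_UT was -1.67 ± 0.67 and was not called (edgeR adjusted p = 0.184). Without 9M_PoW+DT replicate 3 the adjusted p was 0.0392, within a range of 0.0392 to 0.427 over 22 alternatives.

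At 9 months the order of the groups was the other way. Lep had 3.69, 3.05 and 16.9 CPM in 9M_PoW+DT, against 1.68, 2.04 and 0.591 CPM in 9M_UT. Every detrained library was above every untrained one, and replicate 3 alone held 366 of the 516 Lep counts of the detrained group. The log2 fold change was 2.46 ± 0.67 and did not pass (edgeR adjusted p = 0.576). Without replicate 3 it was 1.23, and the 2 remaining detrained libraries still lay above all 3 untrained ones. The summed counts gave a ratio of 5.51 (exact 95% interval 4.38 to 7.02) with that library and 2.39 (1.82 to 3.15) without it. For Adipoq the same ratios were 2.15 (1.83 to 2.53) and 1.21 (0.993 to 1.48). DESeq2 called Lep with an adjusted p of 0.0175, the only one of 21 alternatives under 0.05, in a range up to 0.996.

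Set against each other, the detraining and the training contrast of Lep differed by 5.80 ± 1.11 on the log2 scale. This difference was not called by edgeR (adjusted p = 0.181) and was called by DESeq2 (adjusted p = 7.9e-07). Without 9M_PoW+DT replicate 3 it was 4.57. With the 9-month groups exchanged, as the treatment field reads, it was 0.88 (edgeR adjusted p = 0.888, the highest of 22 alternatives). Lep in untrained muscle of 9 months was close to that of 6 months, at 1.44 ± 0.75 CPM in 9M_UT and 1.78 ± 0.58 CPM in 6M_UT (SD, n = 3 each), and the groups overlapped.

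**Figure D1:**
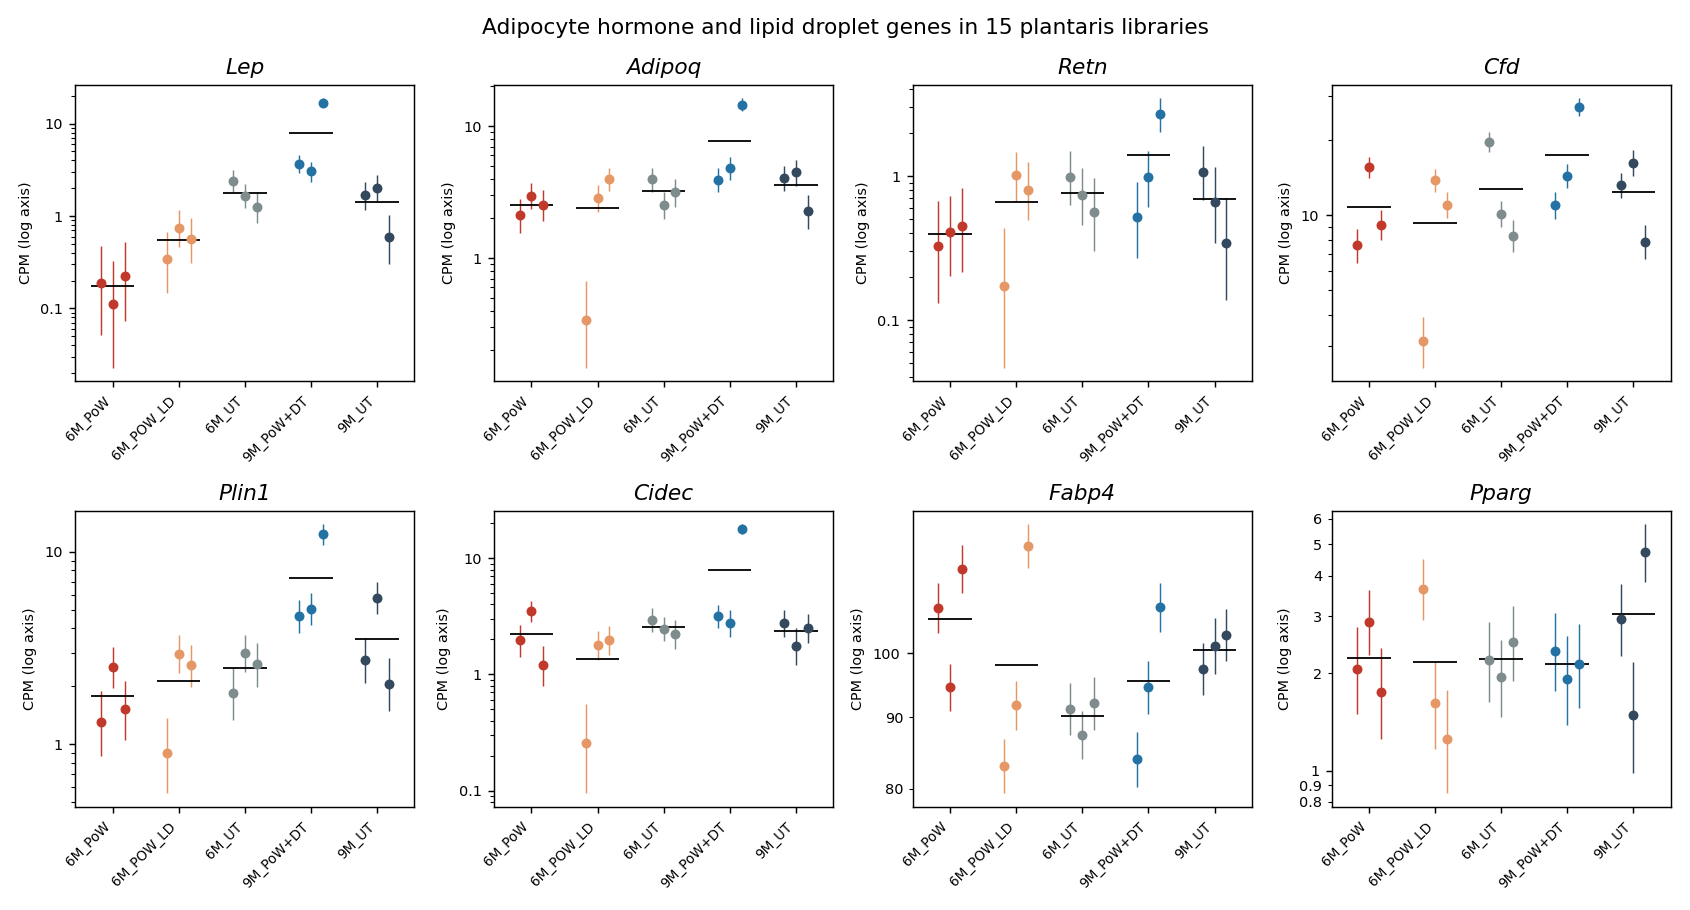
Each panel shows 1 gene, with CPM on a log axis for every library, coloured by group, vertical lines for exact Poisson 95% intervals and horizontal bars for group means. Lep is lowest in the 3 libraries of 6M_PoW, at 0.111 to 0.225 CPM, and 9M_PoW+DT replicate 3 is the highest point for Lep, Adipoq, Retn, Cfd, Plin1 and Cidec.

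Adiponectin transcripts did not separate trained from untrained muscle. Adipoq had 2.11, 2.96 and 2.52 CPM in 6M_PoW, against 3.95, 2.51 and 3.14 CPM in 6M_UT, and these groups overlapped. The log2 fold change was -0.33 ± 0.46 (edgeR adjusted p = 0.860). In the LD libraries Adipoq had 0.343, 2.85 and 3.95 CPM, so that 1 library was far below and the others lay within the range of the untrained group. At 9 months it had 3.91, 4.79 and 14.5 CPM in 9M_PoW+DT, against 4.06, 4.46 and 2.26 CPM in 9M_UT. The detraining log2 fold change of 1.11 ± 0.45 (edgeR adjusted p = 0.732) became 0.28 without 9M_PoW+DT replicate 3.

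Resistin, from Retn, is a hormone of mouse adipocytes that was named for its link to insulin resistance. It had 0.328, 0.407 and 0.450 CPM in 6M_PoW, against 0.989, 0.743 and 0.567 CPM in 6M_UT. The groups did not overlap, but the counts were only 7 to 11 in the trained and 13 to 23 in the untrained libraries, and the log2 fold change of -0.94 ± 0.62 was not called (edgeR adjusted p = 0.658). The LD libraries spread from 0.171 to 1.01 CPM around the untrained range. In 9M_PoW+DT the values were 0.521, 0.985 and 2.68 CPM, against 1.07, 0.660 and 0.344 CPM in 9M_UT, and these groups overlapped.

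Adipsin, the complement factor D encoded by Cfd, varied more within groups than between them. It had 7.59, 15.6 and 9.17 CPM in 6M_PoW, against 19.6, 10.2 and 8.29 CPM in 6M_UT. It had 11, 14.4 and 27.1 CPM in 9M_PoW+DT, against 13.2, 16.2 and 7.82 CPM in 9M_UT. All comparisons of Cfd overlapped, with log2 fold changes of -0.23 ± 0.47 for training and 0.50 ± 0.47 for detraining. Leaving out 6M_UT replicate 1 turned the training value to 0.23.

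Plin1 encodes perilipin 1, which coats the lipid droplet and gates access of lipases to it, and Cidec encodes a protein that fuses droplets into a large one. Plin1 had 1.31, 2.51 and 1.53 CPM in 6M_PoW, against 1.85, 2.97 and 2.62 CPM in 6M_UT, and Cidec had 1.97, 3.51 and 1.21 CPM, against 2.97, 2.48 and 2.23 CPM. Both overlapped after training. At 9 months Plin1 had 4.65, 5.07 and 12.3 CPM in 9M_PoW+DT, against 2.75, 5.78 and 2.07 CPM in 9M_UT. Cidec had 3.17, 2.77 and 17.8 CPM in 9M_PoW+DT, against 2.75, 1.76 and 2.51 CPM in 9M_UT, and it was the other gene besides Lep whose detrained libraries all lay above the untrained ones. That separation of Cidec rested on 2.77 against 2.75 CPM. Its log2 fold change of 1.75 ± 0.70 (edgeR adjusted p = 0.735) was 0.34 without replicate 3, and that of Plin1, 1.06 ± 0.44 (edgeR adjusted p = 0.735), was 0.47.

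Fabp4, a fatty acid carrier that capillary endothelium makes as well as adipocytes, had by far the highest counts of the 8. It had 108, 94.6 and 115 CPM in 6M_PoW, against 91.3, 87.4 and 92.1 CPM in 6M_UT, with no overlap. The log2 fold change was 0.23 ± 0.09 and was not called (edgeR adjusted p = 0.441). The sum of 12 endothelial markers was also higher, at 425 to 472 CPM in 6M_PoW and 349 to 397 CPM in 6M_UT, and the part of those cells in the Fabp4 value was not tested. At 9 months Fabp4 had 84.0, 94.6 and 108 CPM in 9M_PoW+DT, against 97.5, 101 and 103 CPM in 9M_UT. Replicate 3, the highest of the 15 libraries for 6 of the genes, was within the range of the others for Fabp4, at 1.14-fold the median of the other 14.

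Pparg encodes the nuclear receptor that drives adipocyte formation, and it is also expressed outside fat. It had 2.06, 2.88 and 1.75 CPM in 6M_PoW, against 2.19, 1.95 and 2.49 CPM in 6M_UT. It had 2.35, 1.92 and 2.13 CPM in 9M_PoW+DT, against 2.94, 1.49 and 4.72 CPM in 9M_UT. The groups overlapped in both comparisons, and the highest library of all was 9M_UT replicate 3.

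Counted together, none of the 8 genes was called in any comparison by edgeR at an adjusted p under 0.05. For training, 0% of the 14919 genes tested were called by edgeR and 9.75% had an unadjusted p under 0.05. Of the 8 genes, Lep and Fabp4 were under that unadjusted limit, DESeq2 called Lep, and limma-voom called none. Of the 8, 2 (Lep and Retn) were lower and 1 (Fabp4) higher with no overlap between 6M_PoW and 6M_UT, against 8.28% lower and 7.89% higher among all genes. Their median log2 fold change was -0.28, and that of all genes was 0.00.

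For detraining, 0.0201% of all genes were called by edgeR and 6.52% were under the unadjusted limit. Of the 8 genes, 4 were under it (Lep, Adipoq, Plin1 and Cidec), DESeq2 called Lep, and limma-voom called none. Higher values with no overlap were found for 2 genes, Lep and Cidec, against 6.19% of all genes, and lower ones for none, against 5.70%. The median log2 fold change of the 8 was 1.03 with all libraries and 0.19 without 9M_PoW+DT replicate 3, where that of all genes was 0.00 with all libraries.

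For the difference of the detraining and the training contrast, edgeR called 0.0268% of all genes, and 9.48% were under the unadjusted limit. Of the 8 genes, 5 were under it (Lep, Adipoq, Retn, Plin1 and Fabp4), DESeq2 called Lep and limma-voom none. The median log2 difference of 1.48 became 0.57 without 9M_PoW+DT replicate 3.

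For age, 0.0134% of all genes were called by edgeR and 6.72% were under the unadjusted limit, and of the 8 genes none was under it or was called by DESeq2 or limma-voom. Fabp4 was higher in 9M_UT than in 6M_UT with no overlap, against 5.34% of all genes, and none was lower in this way, against 6.47%. The sets of library identifiers differ between ages, so age and library series cannot be told apart. For the LD libraries against 6M_UT, edgeR called 4.99% of all genes (2.15% higher and 2.83% lower) and 20.0% were under the unadjusted limit, while of the 8 genes Lep alone was under it and neither DESeq2 nor limma-voom called any. Lep and Cidec were lower with no overlap in that comparison, against 12.7% of all genes, and none was higher, against 12.6%. The training, the LD and the age comparison share the 6M_UT libraries, and the detraining and the age comparison share those of 9M_UT.

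**Figure D2:**
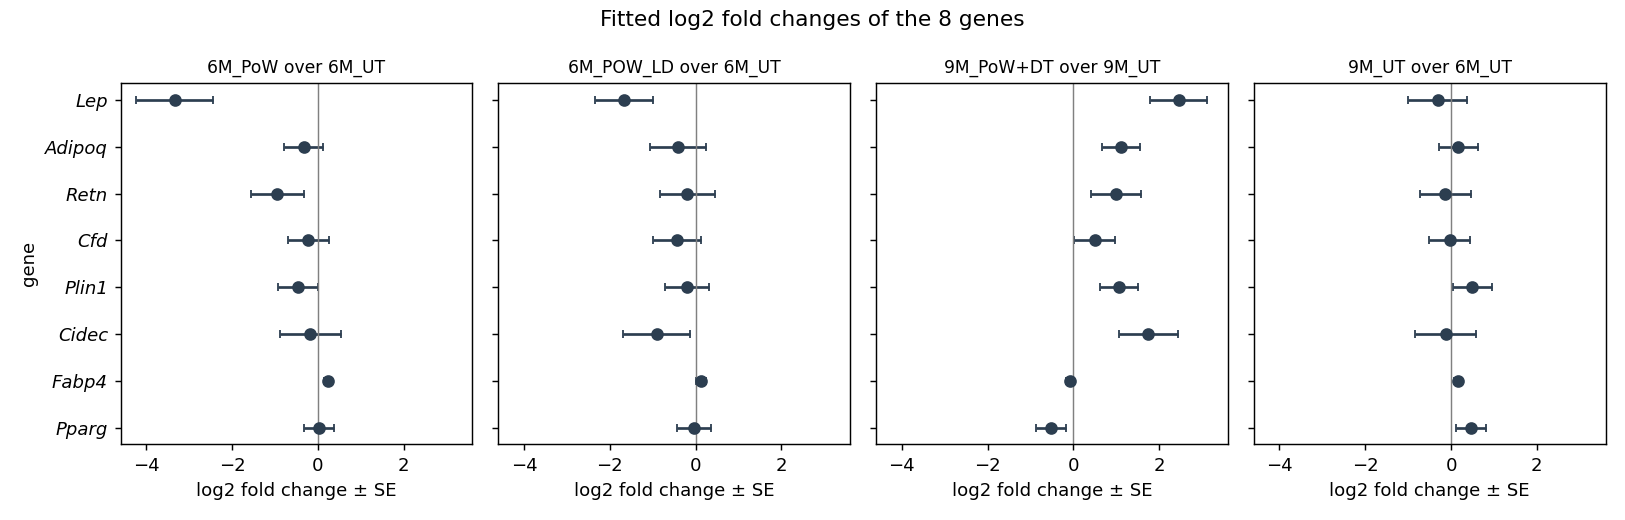
Points are the fitted log2 fold changes of the 8 genes and bars their SE, with 1 panel for each comparison and the tested group named before its control. Lep stands at -3.34 for training and 2.46 for detraining, where the other 7 genes lie between -0.94 and 0.23 for training.

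Lep was also counted per transcript of other adipocyte genes in the same library, a measure in which the fat content of the library enters both sides of the ratio. These ratios were chosen after the values were seen and carry no test. There were 0.0889, 0.0375 and 0.0893 Lep counts per Adipoq count in 6M_PoW, against 0.609, 0.662 and 0.403 in 6M_UT. The geometric means, 0.0668 in 6M_PoW and 0.545 in 6M_UT, differed 8.17-fold, and the groups did not overlap with Adipoq, Plin1, Cidec, Cfd, Retn or the sum of these 5 as the denominator. Over the 6 denominators the training difference ran from -3.16 to -2.43 on the log2 scale.

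At 9 months there were 0.944, 0.637 and 1.17 Lep counts per Adipoq count in 9M_PoW+DT, against 0.414, 0.457 and 0.261 in 9M_UT. Replicate 3, with the most Lep, was the highest here too, and the other detrained libraries were above the untrained ones as well. The log2 difference was 1.28, and it was between 1.03 and 1.52 when single libraries were left out. The groups also did not overlap with Cfd, Retn or the sum as the denominator, but did overlap with Plin1 and with Cidec. With Retn that separation rested on 3.10 against 3.08. The untrained groups also separated with the sum as the denominator, at 0.0393 to 0.0705 in 9M_UT and 0.0751 to 0.0882 in 6M_UT. With each single gene as the denominator these untrained groups overlapped. In the LD libraries the ratio to Adipoq was 1, 0.263 and 0.143, with replicate 4 resting on 8 Lep and 8 Adipoq counts, and this group overlapped 6M_UT. It also overlapped with Cidec as the denominator. With Plin1, Cfd, Retn or the sum as the denominator the LD libraries were lower than 6M_UT with no overlap, by 2.56-fold, 2.16-fold, 2.27-fold and 2.02-fold. With Retn, LD replicate 4 had 2.00, from 8 Lep and 4 Retn counts, against at least 2.23 in 6M_UT. With the sum it had 0.0714 against at least 0.0751.

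**Figure D3:**
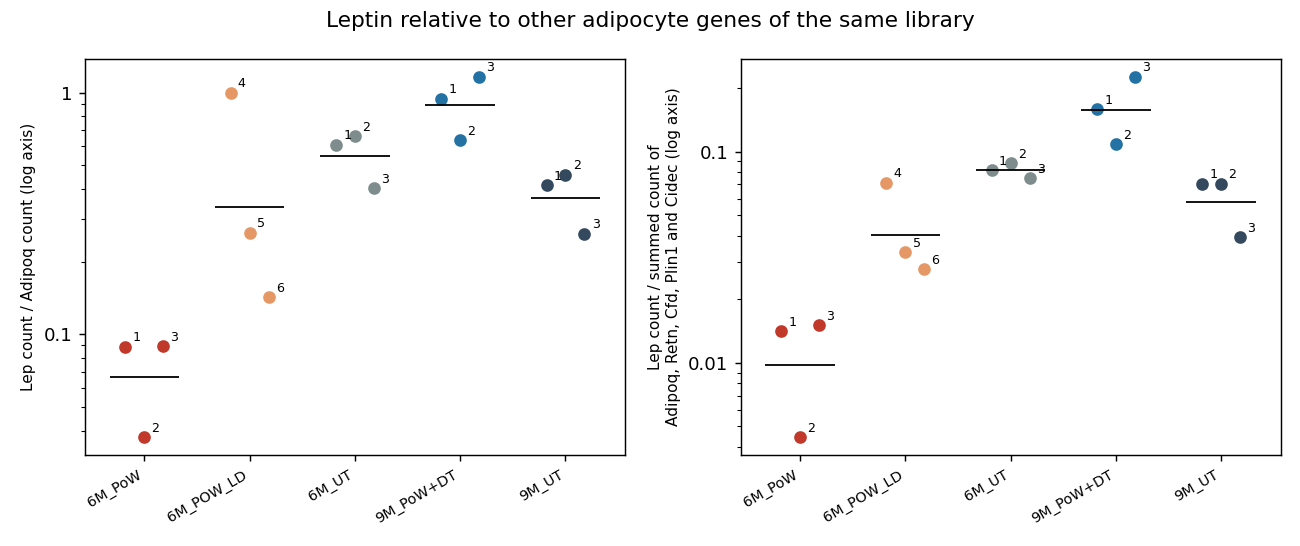
The left panel plots the Lep count over the Adipoq count of the same library and the right panel the Lep count over the summed count of Adipoq, Retn, Cfd, Plin1 and Cidec, on log axes, with replicate numbers beside the points and geometric means as bars. In both panels the 3 libraries of 6M_PoW lie below the 3 of 6M_UT, and those of 9M_PoW+DT above those of 9M_UT.

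A single library, 9M_PoW+DT replicate 3, held the highest value of all 15 for 6 of the 8 genes. Relative to the median of the other 14 libraries it had 16.8-fold more Lep, 7.57-fold more Cidec, 4.76-fold more Adipoq, 4.75-fold more Plin1, 4.37-fold more Retn and 2.47-fold more Cfd. Among genes with 2 CPM or more, 11 exceeded the next highest library at least 2-fold there (after 0.5 CPM was added), and 5 of these were Cidec, Lep, Adipoq, Plin1 and Retn. The other 6 were Slc7a10, Tmem45b, Kcnj15, Hp, Nnat and Smoc1. Hp encodes haptoglobin, which fat and liver secrete, and Slc7a10 is an amino acid transporter used as a marker of white adipocytes. Trarg1, a protein of the insulin-regulated glucose transporter vesicles of fat, came next, at 4.25 CPM there and at most 1.95 CPM elsewhere.

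The same library had the highest sum of 20 other white adipocyte markers, at 77.9 CPM, where the other 14 libraries held 34.8 to 57.1 CPM. Of these 20 markers, 2 had no count in that library. Its sum of 12 endothelial markers, 317 CPM, was the lowest of the 15, and its sum of 10 muscle fibre markers, 136675 CPM, was the highest. The part of these in the values of the 8 genes was not tested. The excess of this library over the median of the other 14 was not the same for all fat genes, being 16.8-fold for Lep and 2.47-fold for Cfd. For Lep that median, 1.01 CPM, includes the low libraries of 6M_PoW and 6M_POW_LD. Over the highest other library the excess was 4.58-fold for Lep, 5.07-fold for Cidec, 3.03-fold for Adipoq and 1.38-fold for Cfd, so that Lep did not lead. Of the other libraries, 6M_UT replicate 1 had 17 genes past the 2-fold limit and the rest at most 8, with none of the 8 adipocyte genes among them.

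Low values of most of the genes were seen in 6M_POW_LD replicate 4. It was the lowest of the 15 libraries for Adipoq, Retn, Cfd, Plin1, Cidec and Fabp4. Adipoq was 10.3-fold and Cidec 9.70-fold below the median of the other 14 libraries there, and Cfd was 3.87-fold below it. Pparg was 1.74-fold above that median, and the sum of the 20 other white adipocyte markers, 42.6 CPM, was within the range of the other libraries. The members of that list did not all follow the sum, and 3 of the 20 had no count there. Slc7a10 (0 CPM), Lgals12 (0.128 CPM) and Nnat (0.214 CPM) were the lowest of the 15 libraries, while Trarg1, Mest and Tshr were within the range of the others. Lep was 4.27-fold below the median of the other 14 libraries, at 0.343 CPM, but all 3 libraries of 6M_PoW were lower still. Without this library the LD median log2 fold change of the 8 genes was 0.03, against -0.31 with it, and the Adipoq value was 0.09 in place of -0.42.

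**Figure D4:**
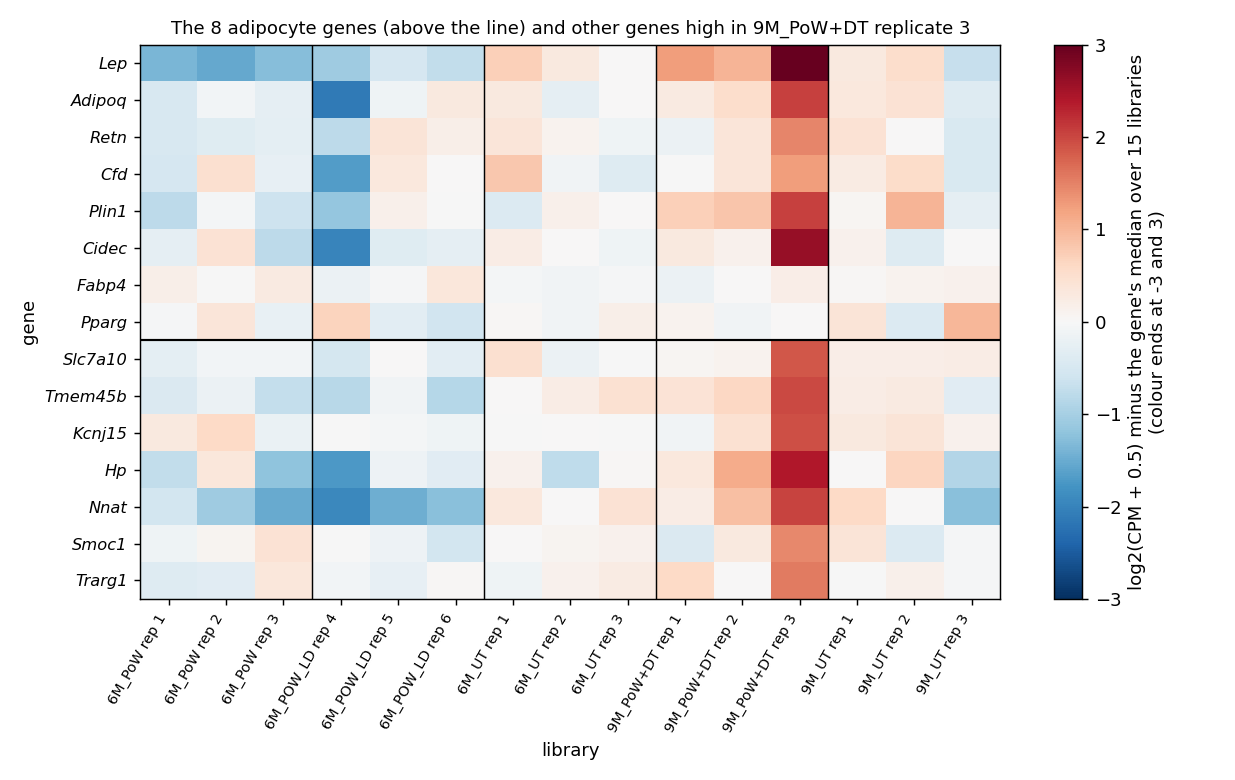
Colours give log2(CPM + 0.5) minus the gene's median over the 15 libraries, for the 8 adipocyte genes above the line and the other genes that stood out in 9M_PoW+DT replicate 3 below it. The column of that library is red for all rows but Fabp4 and Pparg. The Lep row is blue in all 6 libraries titled as trained at 6 months, and also in the untrained 9M_UT replicate 3.

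Genes with a profile like that of Lep were sought among 13034 genes by the mean absolute difference of centred log2(CPM + 0.5) values over the 15 libraries. The 10 nearest, at differences of 0.48 to 0.66 where a flat profile would lie at 0.97, included Nnat, Tmem45b, Hp, Plin1, Whrn, Mib1, Klhdc7a, Prkar2b and Adipoq. Without 9M_PoW+DT replicate 3 the 10 nearest included Nnat, Mib1, Atp13a5, Dkk2, Whrn, Tmem45b, Zfp605, Plin1 and Angptl7, and Adipoq stood at place 119. These points share libraries and depth, and the list is a description.

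Neuronatin (Nnat), an imprinted gene expressed in fat and brain, was nearest to Lep in both searches. It had 1.36, 0.813 and 0.450 CPM in 6M_PoW and 0.214, 0.487 and 0.645 CPM in 6M_POW_LD, against 2.92, 2.23 and 3.19 CPM in 6M_UT. All 6 libraries titled as trained at 6 months were below the untrained ones. At 9 months it had 2.69, 4.60 and 10.6 CPM in 9M_PoW+DT, against 3.64, 2.26 and 0.640 CPM in 9M_UT, and these groups overlapped.

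The 10 genes nearest to Adipoq were Cfd, Retn, Tmem45b, Scd1, Cidec, Plin1, Pck1, Hp, Lgals12 and Gemin4, at differences of 0.29 to 0.38 against 0.53 for a flat profile. Without 9M_PoW+DT replicate 3, Cfd was still the nearest, and Retn and Cidec stayed among the 10 with Nupr1, Apcdd1, Zfp709, Gemin4, Rem1, Znhit2 and Rims4. Lep stood at place 10792 from Adipoq with all libraries, at a difference of 0.66. This was above the 0.53 of a flat profile, so a gene that hardly varied would rank ahead of Lep. The same difference of 0.66 put Adipoq at place 10 from Lep, where a flat profile lay at 0.97. The measure takes in the size of changes, so place 10792 does not show that Lep and Adipoq changed in different directions.

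Among the 20 other white adipocyte markers, 16 were tested and none was called for training, detraining, their difference or age. For detraining 12 lay above 0 and 4 below, with a median of 0.32 where that of all genes was 0.00. The 3 smallest p-values belonged to Mest, Trarg1 and Tshr. Values of list genes are given from the lowest to the highest library of a group. Mest, an imprinted gene linked to fat expansion, had 1.13, 2.26 and 4.76 CPM in 9M_PoW+DT, against 0.980, 1.10 and 1.38 CPM in 9M_UT. Its log2 fold change of 1.23 was 0.56 without replicate 3, and that of Trarg1 was 0.39 in place of 1.06. Tshr, the thyrotropin receptor, had 0.347, 0.704 and 1.76 CPM against 0.0492, 0.280 and 0.330 CPM, with no overlap, and its log2 fold change of 2.07 was 1.24 without that library. The separation of Tshr rested on 0.347 against 0.330 CPM, levels at which counts are few.

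The transcription factors that act with Pparg in fat formation were scattered around 0. Of 12 tested, 5 lay above and 7 below 0 for detraining (median -0.11), and 6 above and 6 below for training (median -0.02), with none called. Cebpa, which drives late fat differentiation, had 5.82, 6.12 and 11.1 CPM in 9M_PoW+DT, against 4.58, 5.69 and 7.49 CPM in 9M_UT, and its log2 fold change was 0.38 with and 0.02 without replicate 3. Cebpd had 6.43, 21.6 and 49.4 CPM in 9M_PoW+DT and 31.6, 104 and 128 CPM in 9M_UT, so that these groups overlapped. Rxra, the partner receptor of Pparg, had 157, 165 and 178 CPM against 147, 150 and 154 CPM, a log2 fold change of 0.15 ± 0.07 (edgeR adjusted p = 0.766).

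Other lipid droplet and lipolysis genes and the genes of fatty acid uptake and lipid synthesis, many of which muscle fibres express themselves, also had no member called for training or detraining. Their detraining medians were -0.05 over 17 tested genes and -0.08 over 19. G0s2, an inhibitor of triglyceride lipase, had 4.07, 5.16 and 8.25 CPM in 9M_PoW+DT, against 2.26, 3.25 and 4.85 CPM in 9M_UT. Cidea, a relative of Cidec, was lower with no overlap, at 0.0869, 0.555 and 0.610 CPM against 0.716, 0.840 and 1.18 CPM. That separation of Cidea rested on 0.610 against 0.716 CPM, levels at which counts are few. The fatty acid desaturase gene Scd1 had 44.6, 57.1 and 108 CPM against 26.1, 39.2 and 50.3 CPM, and its log2 fold change of 0.86 was 0.40 without replicate 3. Pck1, which supplies glycerol for triglyceride in fat, had a log2 fold change of 0.76 with and 0.24 without that library. Cav1 and the malic enzyme gene Me1 were lower by 0.17 and 0.18 on the log2 scale with no overlap.

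The leptin receptor gene Lepr and its signalling partners were measured in the same muscle. Of 12 genes, 5 lay above and 7 below 0 for detraining and 6 on each side for training, with none called. The 3 smallest detraining p-values belonged to the adaptors of insulin and leptin signalling. Irs2 had 29.8, 41.9 and 46.3 CPM in 9M_PoW+DT, against 86.0, 117 and 163 CPM in 9M_UT, with a log2 fold change of -1.63 ± 0.33 (edgeR adjusted p = 0.575). Irs1 was lower with no overlap, at 46.1, 46.7 and 59.9 CPM against 67.4, 72.0 and 92.0 CPM. Sh2b1, an adaptor of the leptin receptor, was higher, at 62.4, 64.5 and 65.2 CPM against 49.8, 52.0 and 53.4 CPM. DESeq2 called Irs2.

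Of 8 genes for the adiponectin receptors and the AMP-activated kinase and nuclear receptor downstream of them, 5 lay above and 3 below 0 for detraining, with a median of 0.04, and none was called. The 3 with the smallest p, the receptor gene Adipor1 and the kinase subunit genes Prkag3 and Prkaa1, all overlapped between 9M_PoW+DT and 9M_UT.

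In the LD comparison 8 genes of these lists were called by edgeR. Nnat, Nr1h3 (a sterol-sensing nuclear receptor), Bscl2 (seipin, which shapes lipid droplets) and Adipor1 fell in 6M_POW_LD, and Cav1 and Cavin1 (the coat of caveolae, which endothelium and muscle also make), Irs1 and Cdh13 (a cell-surface binding protein of adiponectin) rose. Nnat fell by 2.60 on the log2 scale (edgeR adjusted p = 0.0388) and Bscl2 fell by 0.78, with 3.90, 4.75 and 5.93 CPM in 6M_POW_LD and 7.77, 8.21 and 9.03 CPM in 6M_UT. Irs1 rose by 1.08, and Cdh13 by 0.33, with 88.1, 88.8 and 88.9 CPM against 68.2, 70.2 and 73.2 CPM. The 8 calls were 9.52% of the 84 genes of these lists that were tested, beside 4.99% of all genes, and they depended on single libraries. Leaving out 6M_POW_LD replicate 5 ended all 8 calls (adjusted p from 0.0508 to 0.139). Leaving out 6M_UT replicate 1 ended 7 (up to 0.133), 6M_POW_LD replicate 6 ended 5 (up to 0.113), and 6M_POW_LD replicate 4 or 6M_UT replicate 3 ended 4 each (up to 0.130 and 0.115). Without 6M_UT replicate 2 Adipor1 and Nnat were lost (0.0674), and Nnat alone was lost without replicate 2 of 6M_PoW, 9M_UT or 9M_PoW+DT (at most 0.0587). With only the LD and 6M_UT libraries in the fit, Nnat (0.0120) and Cdh13 (0.0403) were called. The Nnat call was also lost with limma-voom (0.122) and with no filter on low counts (0.0604).

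Markers of other cells were summed in the same libraries, since the fat genes sit in a mixed tissue. Fibro-adipogenic progenitor markers had sums of 1085 to 1257 CPM in 6M_PoW and 919 to 1049 CPM in 6M_UT, with 13 of 14 genes above 0, and 1004 to 1105 CPM in 9M_PoW+DT and 1070 to 1215 CPM in 9M_UT, with 4 of 14 above 0. Macrophage and leukocyte markers had 92.3 to 123 CPM in 6M_PoW and 63.9 to 78.6 CPM in 6M_UT, and mast cell markers 6.79 to 12.1 CPM and 2.44 to 4.99 CPM. At 9 months macrophage and leukocyte markers had 84.0 to 107 CPM in 9M_PoW+DT and 87.1 to 96.9 CPM in 9M_UT. Mast cell markers had 6.01 to 7.65 CPM and 7.04 to 10.1 CPM. For these markers and those of the progenitors, the untrained 9M_UT libraries also lay above 6M_UT with no overlap. Endothelial markers had 317 to 390 CPM in 9M_PoW+DT, below the 393 to 429 CPM of 9M_UT. Of brown and beige fat markers, 6 of 8 were measured, with sums of 137 to 204 CPM in 9M_PoW+DT and 135 to 172 CPM in 9M_UT, which overlapped. Ucp1 was on that list, and a value for it alone is not reported here. Cidea, a member of that list, held only 0.0869 to 0.610 CPM of the sum in 9M_PoW+DT. Other members made up the rest of the sum, and which cells made them was not tested. The part of all these cell markers in the values of the 8 genes was not tested.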

How the data were processed

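RNA-seq of plantaris muscle was available for 15 libraries of 5 groups. The deposited values are expected counts, and 26.9% to 31.9% of those of a library were not whole numbers. STAR 2.7.3a, DESeq2, Partek and the mouse build mm10 are named per the submitters' processing notes, with no role. How reads were counted, with which annotation and whether by strand, is not stated there, so overlapping and antisense genes cannot be separated.

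Expected counts were rounded, filtered with filterByExpr (14919 genes in 12 libraries without LD, 15181 in all 15), scaled by TMM and fitted by edgeR 4.0.16 (quasi-likelihood, robust, R 4.3.3) with 1 mean per group. Within a comparison, Benjamini-Hochberg adjustment covered all genes tested, and an adjusted p under 0.05 counted as a call. The LD comparison came from the 15-library fit, the others from the 12-library fit. The script was checked on simulated counts. CPM values use the effective totals of the 15-library fit. The SE is the log2 fold change over the square root of F. Expected counts varied between replicates by far more than counting error, so no library was treated as a copy.

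The 8 genes and the other gene lists were chosen with earlier results of these data known. Besides the 8, the text names, from the other white adipocyte markers and 5 pathway lists, every member called in a comparison and the 3 with the smallest detraining p, the 10 genes nearest to Lep and to Adipoq, and the 12 genes that stand out most in 9M_PoW+DT replicate 3. The Lep ratios and the summed-count ratios were chosen after their values were seen. Alternatives were DESeq2 1.42.0, limma-voom 3.58.1, 2 other scalings, 2 other filters, a replicate block, other group readings, and leaving out each library. Some named-gene results are not reported here.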

Additional observations from a re-analysis of the deposited data

Results flagged for a closer look

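The difference of the detraining and the training log2 fold change of Lep, 5.80 ± 1.11 (SE), stood out because the groups moved in opposite directions. All 3 libraries of 6M_PoW were below all 3 of 6M_UT, and all 3 of 9M_PoW+DT were above all 3 of 9M_UT. The difference itself was tested and was not called by edgeR (adjusted p = 0.181). With the 9-month groups exchanged, as the treatment field reads, the difference was 0.88 and the groups of both ages moved the same way.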

How the results depend on the processing

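No member result lost a call, since edgeR made none. Of the alternatives run for the 8 genes, 815 results kept their direction and side of the threshold, 5 became called, all of them for Lep, and 47 changed sign. With DESeq2, 1 of the 8 genes (Lep) was called in each of training, detraining and their difference. Without 9M_PoW+DT replicate 3, Lep was called for training and for LD. Lep had 3 to 5 counts in a library of 6M_PoW, which limits the precision of its fold change.

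The number of all genes called depended strongly on the test. For training it was 0 in the fit reported, 112 with DESeq2, 8 with no filter, 29 with the LD libraries as trained and 4 with only the 2 groups compared. For detraining it was 30 with DESeq2, 0 with limma-voom and 18 with only the 2 groups. For the difference it was 111 with DESeq2, 10 with no filter, 2 with the LD libraries as trained, 1 with them as untrained, and 0 with limma-voom, the stricter filter or the 9-month groups exchanged. For age it was 58 with DESeq2, 10 with no filter, 10 with only the 2 groups, and 0 with limma-voom, the stricter filter or the exchange. For LD it was 1190 with DESeq2 and 387 with only the 2 groups.

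Leaving out single libraries gave 0 to 10 called genes for training, 1 to 6 for detraining, 0 to 26 for the difference, 1 to 15 for age and 288 to 827 for LD, and 0 to 1 of the 8 genes for training and for LD. The replicate numbers gave no sign of pairing the samples: deviations from group means correlated at -0.22 to 0.15 for 18 same-numbered pairs and at -0.20 to 0.23 for 36 others. With so few libraries in a group, these values cannot exclude a pairing. With the replicate block 1 gene was called for training and 5 for age. Lep stood at -3.39 for training, 2.22 for detraining and 5.61 for their difference, and no call on the 8 genes changed.

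With the 9-month groups exchanged, as the treatment field reads, the detraining values turn sign by construction (Lep -2.46, Adipoq -1.11, Retn -0.998, Cfd -0.50, Plin1 -1.06, Cidec -1.75, Fabp4 0.074, Pparg 0.52), and the other lists were not run so. The difference was then 0.88 for Lep, in place of 5.80, -0.78 for Adipoq, -0.053 for Retn, -0.27 for Cfd, -0.60 for Plin1, -1.57 for Cidec and 0.49 for Pparg. Age was then 2.15 for Lep, 0.86 for Retn, 0.47 for Cfd, 1.63 for Cidec and -0.047 for Pparg. With the LD libraries as untrained, training was 0.20 for Cidec and age was 0.29 for Lep, 0.17 for Cfd and 0.27 for Cidec. With them as trained, training was -0.0035 for Pparg, and limma-voom gave 0.0054 for Cfd with age. The causes of these changes were not tested.

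The sign of small fold changes also depended on single libraries. For training the range over libraries left out was -0.60 to 0.23 for Cfd, -0.68 to 0.12 for Cidec and -0.21 to 0.18 for Pparg. For detraining it was -0.17 to 0.0097 for Fabp4. For age it was -0.64 to 0.060 for Lep, -0.012 to 0.41 for Adipoq, -0.61 to 0.18 for Retn, -0.27 to 0.42 for Cfd, -0.044 to 0.77 for Plin1 and -0.25 to 0.043 for Cidec. For LD it was -0.98 to 0.088 for Adipoq, -0.63 to 0.25 for Retn, -0.84 to 0.018 for Cfd, -0.51 to 0.16 for Plin1, -0.046 to 0.23 for Fabp4 and -0.62 to 0.24 for Pparg. The log2 difference of the Lep ratio was -2.43 for training with Retn as the denominator and 1.73 for detraining with Cfd, and with Adipoq it ran over libraries left out from -3.25 to -2.61 for training and from -1.49 to -0.09 for LD.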

Other observations

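Other libraries also stood apart in single groups of genes. In 6M_POW_LD replicate 6 the globin genes Hbb-bs, Hbb-bt, Hba-a1 and Hba-a2 and the haem synthesis gene Alas2 were among 8 genes with 2 CPM or more that exceeded the next highest library at least 2-fold, and the blood marker sum was 3112 CPM there and 504 and 695 CPM in the other LD libraries, against 326 to 893 CPM in 6M_UT. In 6M_UT replicate 2 the 3 such genes were the clock genes Ciart, Dbp and Per2.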
